A study of Mus musculus with 11 samples.

Results

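The nuclear genes for subunits of the 5 oxidative phosphorylation complexes were followed across mouse B cell leukemias and progenitor B cells. A gene was taken if its symbol began with Nduf and a subunit letter from a, b, c, s or v with a number (complex I), was Sdha, Sdhb, Sdhc or Sdhd (complex II), or began with Uqcr (complex III), Cox4 to Cox8 (complex IV) or Atp5 (complex V). Symbols with -ps, which mark pseudogenes, were left out. Of 23071 identifiers in the expression table, 83 names fitted, and 81 of these had a value above 0 in at least 1 library: 37 of complex I, 4 of complex II, 8 of complex III, 16 of complex IV and 16 of complex V. Cox7b2 and Cox8c were listed at 0 in every library.

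Oxidative phosphorylation makes most of the ATP of a resting cell. Complex I (NADH dehydrogenase) and complex II (succinate dehydrogenase) pass electrons to ubiquinone, complex III passes them to cytochrome c, complex IV (cytochrome c oxidase) passes them to oxygen, and complex V (ATP synthase) uses the proton gradient that complexes I, III and IV build across the inner mitochondrial membrane. Each complex except complex II joins subunits encoded in the mitochondrial DNA to subunits encoded in the nucleus. In B lymphocytes, developing cells shift between this route and glycolysis as they divide and mature. No identifier of a mitochondrially encoded subunit was in the table (0 found), so those subunits were not analysed here.

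All mice were C57BL/6. The leukemia group held 5 libraries, each of cells from the lymph nodes of 1 leukemic mouse heterozygous for both Pax5 and Ebf1 (Pax5+/- x Ebf1+/-), taken as a flash-frozen cell suspension. The Ebf1+/- group held 3 libraries of progenitor B cells from the bone marrow, purified on columns and pooled from 3, 6 and 7 mice, and the wild-type group held 3 libraries of progenitor B cells obtained in the same way from pools of 3, 7 and 6 mice. Neither age nor sex is stated in the labels. Genotype, leukemic state, tissue, purification and pooling therefore changed together between leukemia and either bone marrow group, and their parts cannot be told apart. Pax5 and Ebf1, transcription factors that set and hold B cell identity, averaged 119 ± 38.3 and 66.6 ± 10.8 FPKM in leukemia, 179 ± 83.5 and 71.2 ± 24.1 FPKM in Ebf1+/- cells, and 222 ± 77.9 and 99.1 ± 14.3 FPKM in wild-type cells (SD, n = 5, 3 and 3).

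Levels are given in FPKM, fragments per kilobase of gene length, scaled to library size, which is a scale per length on which genes may be compared. Sequencing depth was 8.51 to 14.33 (in 1e6 reads) in leukemia, 11.21 to 15.31 in Ebf1+/- cells and 11.09 to 14.49 in wild-type cells. B progenitor markers (10 genes, all above 0 in each group, among them Cd79a and Vpreb1) summed to 3269 to 4506 FPKM in leukemia, 1764 to 5093 FPKM in Ebf1+/- cells and 2380 to 4059 FPKM in wild-type cells, so markers of the labelled cell type were present in all 3 groups. The single markers were split: 5 of the 10 had a lower mean in leukemia than in both other groups, and 3 had a higher one. The bone marrow libraries also held other cells: 13 granulocyte markers summed to 3.98 to 9.17 FPKM in leukemia (Cebpe at 0), 2726 to 10701 FPKM in Ebf1+/- cells and 628 to 3424 FPKM in wild-type cells. The 8 megakaryocyte and platelet markers summed to 0.282 to 1.64 FPKM, 148 to 4206 FPKM and 80.5 to 472 FPKM in leukemia, Ebf1+/- and wild-type libraries, and 12 erythroid markers, of which the 6 globin genes were listed at 0 in every library, summed to 57.0 to 148 FPKM (Car1 also at 0), 464 to 1153 FPKM and 223 to 1155 FPKM in the same order of groups. In leukemia the 9 T cell markers summed to 57.9 to 111 FPKM, against 34.9 to 56.0 FPKM in Ebf1+/- cells and 27.2 to 38.9 FPKM in wild-type cells, and no T cell marker was at 0 throughout a group. That sum rested on Lck (71.1 FPKM on average in leukemia, 20.2 FPKM in Ebf1+/- cells and 15.3 FPKM in wild-type cells), while 7 of the 9, among them Cd3e (0.970, 3.61 and 2.10 FPKM), had a lower mean in leukemia than in both other groups. The part of these cells in the subunit results was not tested. In such bulk samples, fewer cells of a type and less RNA per cell cannot be told apart.

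Most subunit genes were among the abundant short transcripts of these cells. Of the 81 genes, 77 averaged at least 1 FPKM over the 11 libraries, and 47 averaged at least 100 FPKM. Their median gene length was 724 bases, against 2812 bases for all genes of at least 1 FPKM, and their median level was 126 FPKM, against 13.7 FPKM. The catalytic beta subunit of ATP synthase, Atp5b, was the most abundant at 756 ± 28.9 FPKM in leukemia, 707 ± 56.7 FPKM in Ebf1+/- cells and 659 ± 94.1 FPKM in wild-type cells, and its partner Atp5a1, the alpha subunit, lay at 483 ± 14.8, 490 ± 24.9 and 487 ± 44.2 FPKM in the same groups. Cox4i1, the common isoform of a regulatory complex IV subunit, averaged 490 ± 64.6 FPKM in leukemia, 474 ± 119 FPKM in Ebf1+/- cells and 412 ± 20.6 FPKM in wild-type cells. None of these 3 genes passed the test in any comparison. The 4 genes under 1 FPKM were Cox4i2, the lung and hypoxia-responsive partner of Cox4i1, Cox8b, a heart and muscle isoform, Ndufa4l2, a hypoxia-induced relative of Ndufa4, and Ndufs5. Ndufs5 had 1 read in all libraries together, and a near-identical copy of its transcript (99.6% identity over 96.0% of its length) stands elsewhere in the genome, so its level is uncertain. A copy of at least 95% identity over at least 50% of the transcript was found for 19 of the 81 genes, and exons of another gene overlapped 29 of them, whose reads cannot be told apart from that gene's without strand.

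**Figure D1:**
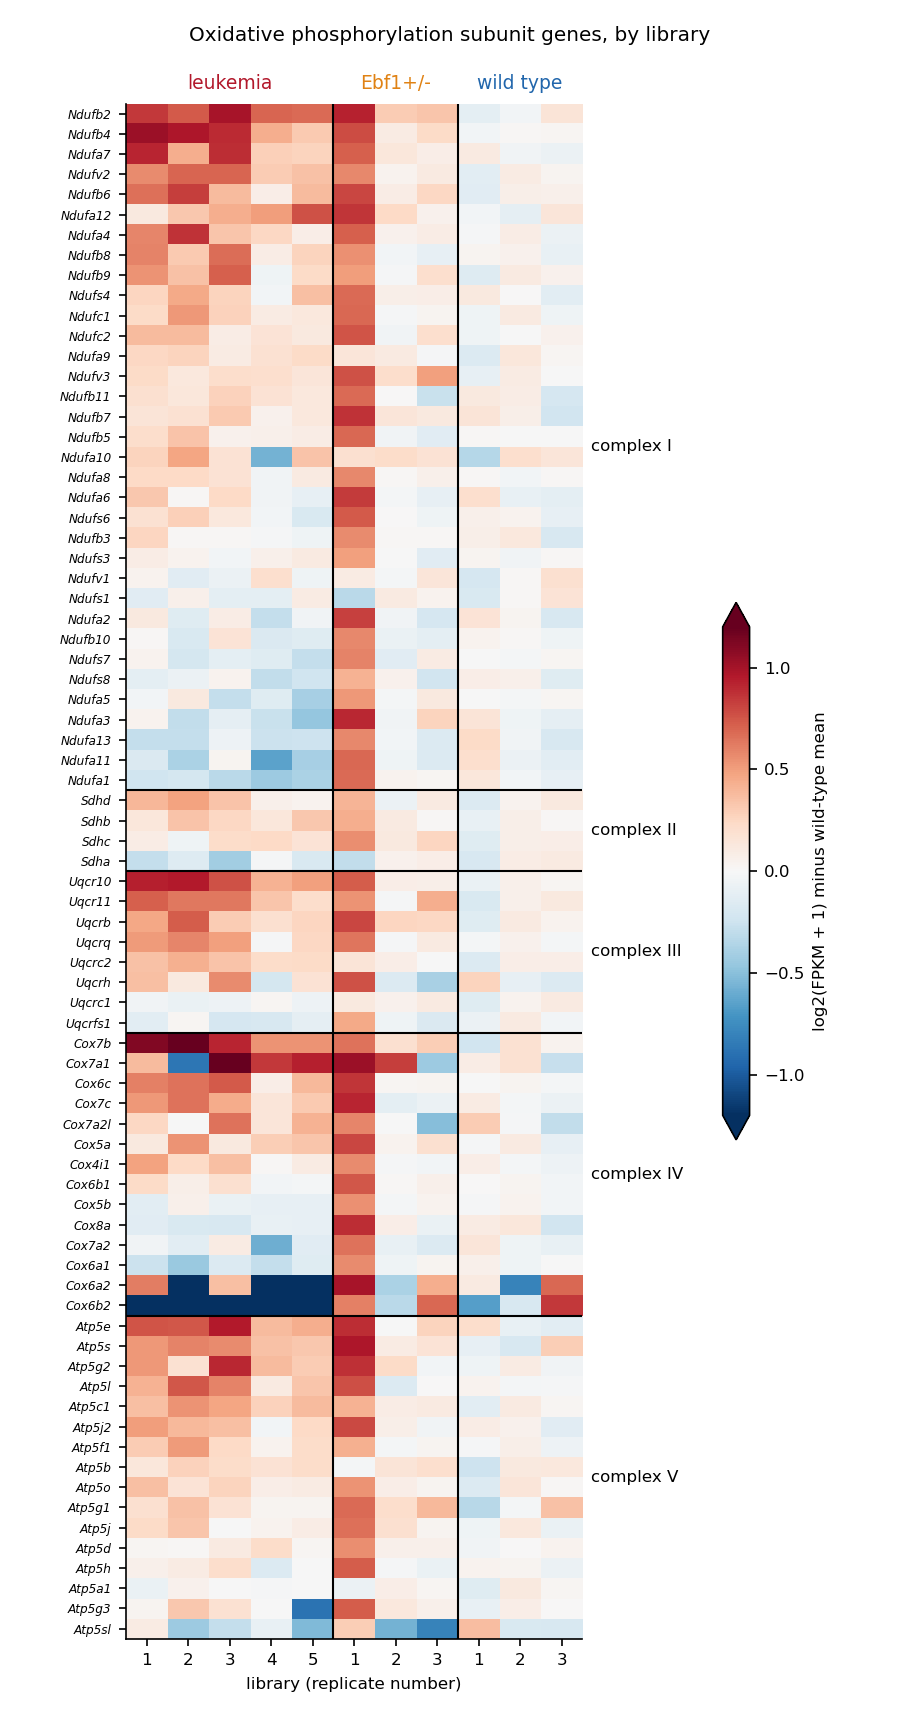
Heat map of 76 of the 77 subunit genes averaging at least 1 FPKM (one per line, grouped by complex and sorted by their leukemia against wild-type difference) in the 5 leukemia, 3 Ebf1+/- and 3 wild-type libraries. Colour gives log2(FPKM + 1) minus the wild-type mean, red above and blue below it, with the scale ending at the arrow tips. Cox6b2 is deep blue in all 5 leukemias, and Ebf1+/- replicate 1 is red for nearly all genes, while the other 2 Ebf1+/- libraries lie near the wild-type mean.

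Leukemia against wild-type progenitors asks how the subunit genes stand in transformed cells relative to normal ones. On FPKM as deposited, cells of the leukemic lymph nodes had modestly more mRNA of some subunits of complexes I, III, IV and V, and nearly none of Cox6b2, an isoform of a small complex IV subunit. Of 77 genes tested with limma on log2(FPKM + 1), 19 rose and 2 fell at a Benjamini-Hochberg adjusted p under 0.05. That is 27.3% of the 77, below the 44.8% called among all 10965 genes tested (20.7% higher, 24.1% lower), so subunit genes were called no more often than genes at large. The direction of their calls was mostly upward, and 53 of the 77 had a positive log2 fold change, against 47.5% of all genes. Their median log2 fold change was 0.18, with quartiles at -0.05 and 0.39, and the median of all genes was -0.04. The leukemia and wild-type libraries did not overlap for 25 genes that were higher and 3 that were lower in leukemia (among all genes, 21.2% and 25.1%).

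The number that rose depended on single libraries. It was 9 without wild-type replicate 1, 9 without wild-type replicate 2, 11 without wild-type replicate 3 and 12 without leukemia replicate 3, and 10 when all 3 groups shared 1 estimate of the spread. The direction also depended on the scale, though not under every scaling. With quantile scaling 21 rose and 4 fell (median log2 fold change 0.16), and with median-ratio scaling 20 rose and 2 fell (median 0.21). Scaling by the sum of each library changed it. The FPKM of all genes summed to 478391 to 532438 in the leukemias, against 423051 to 443490 in the wild-type libraries. When each library was divided by its own sum (total-FPKM scaling, chosen after seeing the data), the median log2 fold change of all genes moved to -0.22 and that of the subunit genes to -0.02, 35 of the 77 were positive, and 6 rose and 15 fell. The 6 that rose on both scales were Ndufb2, Ndufb4, Ndufv2, Uqcr10, Cox7b and Atp5e. Among all genes 1471 then rose and 3805 fell, against 2267 and 2646 as deposited. Below, rose and fell refer to FPKM as deposited.

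The plot of 6 genes by library shows Ndufb2, Uqcr10, Cox7b and Atp5e, which rose, and Ndufa1 and Cox6b2, which fell.

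**Figure D2:**
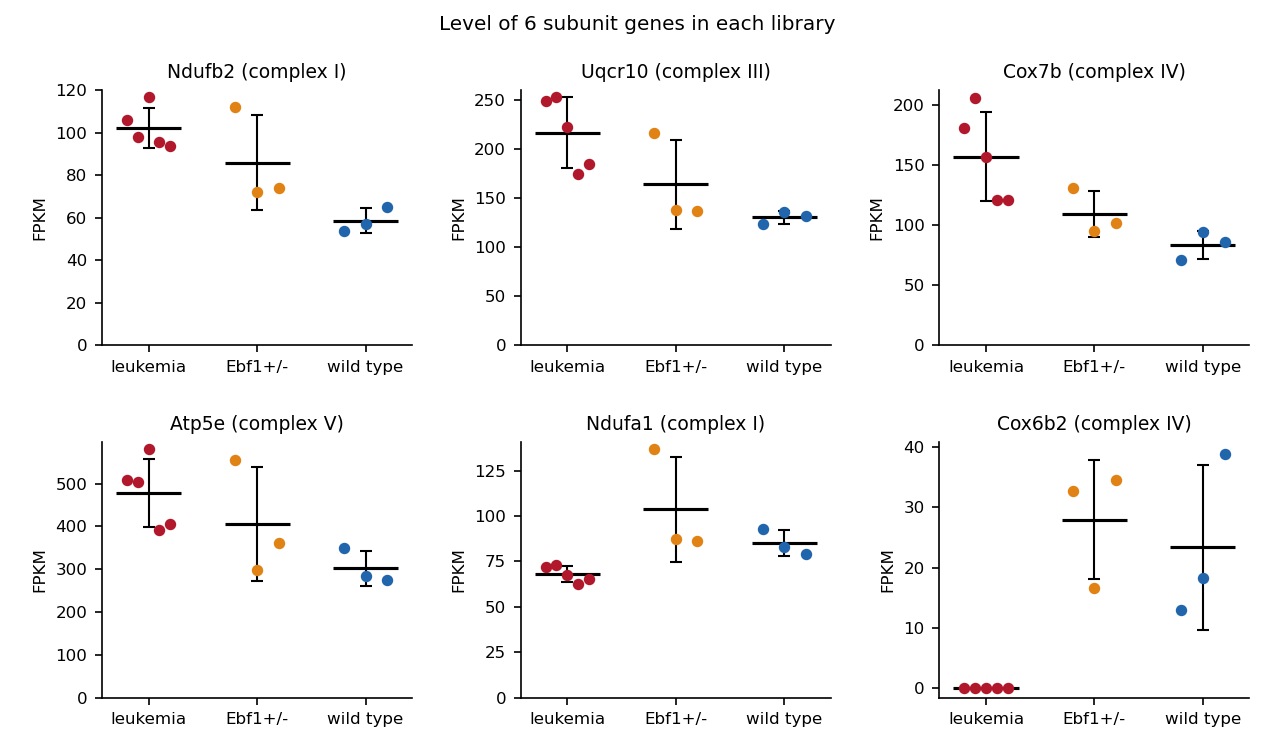
FPKM of 6 subunit genes in each library (points) of the leukemia, Ebf1+/- and wild-type groups, with the mean (wide bar) and SD (error bar). All 5 leukemias lie above all 3 wild-type libraries for Ndufb2 (94 to 117 FPKM, against 53.7 to 65.1 FPKM), and Cox6b2 is at 0 or 0.131 FPKM in the leukemias.

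Complex I is the largest complex, with core subunits that bind the flavin and iron-sulfur clusters and many accessory subunits around them. Of its 35 tested genes by symbol, which include Ndufa4, now placed in complex IV, 7 rose in leukemia and 1 fell, with a median log2 fold change of 0.14 (3 rose and 9 fell with total-FPKM scaling, median -0.06). Of the 7 core genes encoded in the nucleus, 1 rose and 2 in all were positive (median -0.04), and of the 28 tested accessory genes 6 rose, 1 fell and 21 were positive (median 0.17). Ndufb2, an accessory subunit of the membrane arm, measured 106, 98.1, 117, 95.7 and 94 FPKM in the 5 leukemias, 112, 72.3 and 73.9 FPKM in the 3 Ebf1+/- libraries, and 53.7, 57.1 and 65.1 FPKM in the 3 wild-type libraries. Every leukemia was above every wild-type library. Its log2 fold change in leukemia against wild type was 0.79 (SE 0.10, limma adjusted p = 0.000449), and it stayed past the threshold under all 17 alternatives. Its exons overlap Braf and 2 predicted genes, with which its reads cannot be told apart.

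Ndufb4, another membrane-arm accessory subunit, measured 120, 115, 109, 79.2 and 72.6 FPKM in leukemia, 101, 62.5 and 68.4 FPKM in Ebf1+/- cells, and 56.8, 58.7 and 59.3 FPKM in wild-type cells. The groups of leukemia and wild type did not overlap, and leukemias 1, 2 and 3 were higher than leukemias 4 and 5. The log2 fold change was 0.73 (SE 0.17, limma adjusted p = 0.00878). Ndufa7, which sits in the matrix arm, averaged 58.3 ± 13.5 FPKM in leukemia, 49.0 ± 12.9 FPKM in Ebf1+/- cells and 38.5 ± 2.69 FPKM in wild-type cells, with a log2 fold change in leukemia of 0.56 (limma adjusted p = 0.0273). The call on Ndufa7 was lost without leukemia replicate 3, wild-type replicate 2 or wild-type replicate 3 and with total-FPKM scaling (adjusted p from 0.0141 to 0.0832 over the alternatives). The core gene that rose was Ndufv2, an iron-sulfur subunit, at 78.4 FPKM on average in leukemia, 64.7 FPKM in Ebf1+/- cells and 54.0 FPKM in wild-type cells (log2 fold change 0.52).

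Ndufa1, an X-linked membrane-arm subunit needed for assembly of complex I, went the other way. It measured 71.8, 73.1, 67.5, 62.4 and 65.1 FPKM in leukemia, 137, 87.5 and 86.5 FPKM in Ebf1+/- cells, and 93.1, 83 and 79.2 FPKM in wild-type cells. All 5 leukemias lay below both other groups. The log2 fold change was -0.32 against wild type (SE 0.09) and -0.57 against Ebf1+/- (SE 0.16), with limma adjusted p values of 0.0196 and 0.0348. Both calls were fragile: against wild type it was lost without wild-type replicate 1 or 2, with all groups in 1 fit, with voom on reads and with the replicate number as a block (adjusted p up to 0.127, with the block), and against Ebf1+/- it was lost with the block (0.17) and without any 1 of the 5 leukemias (up to 0.0708).

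Complex II is encoded wholly in the nucleus and also serves the citric acid cycle. None of its 4 genes was called in leukemia against wild type on FPKM as deposited. Sdha, the flavoprotein subunit that oxidises succinate, averaged 111 ± 11.7 FPKM in leukemia, 124 ± 17.4 FPKM in Ebf1+/- cells and 129 ± 14.7 FPKM in wild-type cells, and was called lower with total-FPKM scaling (limma adjusted p = 0.0347). Sdhb, the iron-sulfur subunit, averaged 145 ± 10, 141 ± 22.4 and 123 ± 7.45 FPKM in those groups, and its 5 leukemia libraries (135 to 156 FPKM) lay above its 3 wild-type libraries (115 to 129 FPKM), with a log2 fold change of 0.24 and a limma adjusted p of 0.0538. The adjusted p of Sdhb fell under 0.05 with no filter, with quantile scaling, with median-ratio scaling and with voom, the lowest being 0.0401. The membrane anchors did not pass the test either: Sdhc averaged 76.9 ± 6.34 FPKM in leukemia, 87.4 ± 13.7 FPKM in Ebf1+/- cells and 70.1 ± 6.19 FPKM in wild-type cells, and Sdhd 133 ± 18.5, 123 ± 21.1 and 110 ± 11 FPKM.

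In complex III, 4 of 8 genes rose in leukemia and none fell (median log2 fold change 0.34), a share of 50% near the 44.8% called among all genes. With total-FPKM scaling 1 rose and 1 fell (median 0.14). Uqcr10, a small subunit next to cytochrome c1, measured 249, 253, 222, 174 and 184 FPKM in leukemia, 216, 138 and 137 FPKM in Ebf1+/- cells, and 123, 136 and 132 FPKM in wild-type cells. The leukemia and wild-type libraries did not overlap, and leukemias 4 and 5 were the lowest of their group. The log2 fold change was 0.71 (SE 0.14, limma adjusted p = 0.00356), which passed under all 17 alternatives. Uqcr11, another small accessory subunit, averaged 165 ± 24.9 FPKM in leukemia, 145 ± 28.1 FPKM in Ebf1+/- cells and 116 ± 12.8 FPKM in wild-type cells (log2 fold change 0.50, limma adjusted p = 0.0173, 0.0697 without wild-type replicate 1 and 0.0760 with total-FPKM scaling). Uqcrb, a subunit at the ubiquinone-binding side, averaged 135 ± 21.2, 140 ± 32.7 and 102 ± 9.13 FPKM (log2 fold change in leukemia 0.39, limma adjusted p = 0.0375), and its call was lost without leukemia replicate 1 or 3, without any 1 wild-type library, with all groups in 1 fit and with total-FPKM scaling (up to 0.251). Both Uqcr11 and Uqcrb have near-identical copies elsewhere, which the counting could have split. Uqcrc1, a large core protein of the same complex, averaged 148 ± 4.44 FPKM in leukemia, 163 ± 4.04 FPKM in Ebf1+/- cells and 153 ± 13.2 FPKM in wild-type cells. Its leukemias overlapped with wild type and lay below all Ebf1+/- libraries, where it did not pass the test (limma adjusted p = 0.312). The remaining gene that rose was Uqcrc2 (log2 fold change 0.32, limma adjusted p = 0.0217). It averaged 139 ± 8.06 FPKM in leukemia, 118 ± 6.61 FPKM in Ebf1+/- cells and 111 ± 10.8 FPKM in wild-type cells. The leukemias lay above every library of both other groups for Uqcrc2, but against Ebf1+/- it did not pass (limma adjusted p = 0.123). Uqcrc2 was not called higher with total-FPKM scaling, and its exons overlap Pdzd9.

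Complex IV held both the largest rise and the largest fall. Of its 14 tested genes, 3 rose in leukemia and 1 fell (1 and 4 with total-FPKM scaling). Cox7b, a small X-linked subunit, measured 181, 206, 157, 121 and 121 FPKM in leukemia, 131, 95 and 102 FPKM in Ebf1+/- cells, and 70.8, 94.4 and 85.7 FPKM in wild-type cells. All leukemias were above all wild-type libraries, and leukemias 4 and 5 were below Ebf1+/- replicate 1. The log2 fold change against wild type was 0.88 (SE 0.19, limma adjusted p = 0.00591; under all 17 alternatives at most 0.0284). Cox6c averaged 321 ± 55.0 FPKM in leukemia, 289 ± 103 FPKM in Ebf1+/- cells and 225 ± 4.34 FPKM in wild-type cells, and Cox7c 258 ± 33.9, 241 ± 105 and 192 ± 11.7 FPKM. Their log2 fold changes in leukemia were 0.49 (limma adjusted p = 0.0232) and 0.41 (0.0210), each was lost without wild-type replicate 2, without wild-type replicate 3, with all groups in 1 fit and with total-FPKM scaling, and Cox6c also without wild-type replicate 1 (adjusted p up to 0.0934 for Cox6c and 0.152 for Cox7c). Both genes have near-identical copies.

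Cox6b2 set leukemia apart from both bone marrow groups more than any other subunit gene. The gene encodes an isoform of subunit VIb, known mainly from testis, and the widely expressed isoform is Cox6b1. Cox6b2 was at 0, 0, 0.131, 0 and 0 FPKM in the 5 leukemias, where a count of 0 allows 0.339 to 0.572 FPKM (3 reads in a library), at 32.6, 16.6 and 34.5 FPKM in the 3 Ebf1+/- libraries, and at 13.0, 18.3 and 38.8 FPKM in the 3 wild-type libraries. No leukemia came near the lowest bone marrow library. In reads, 1 was counted in leukemia, against 691 in Ebf1+/- and 570 in wild-type cells. Per read sequenced this was 933-fold lower than in wild type (95% counting interval 167 to 36904) and 1082-fold lower than in Ebf1+/- (194 to 42815). These limits cover counting error only, because reads that carry no molecular identifier may be copies of 1 molecule. In the limma fit, whose pseudocount of 1 FPKM shrinks the fold of a gene near 0, the log2 difference was -4.43 against wild type (SE 0.30) and -4.75 against Ebf1+/- (SE 0.24). The limma adjusted p values were 1.65e-05 and 2.63e-05, and both stayed past the threshold under all 17 alternatives.

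Within the wild-type libraries, Cox6b2 was lowest in replicate 1 and highest in replicate 3, and so were the erythroid markers (223, 611 and 1155 FPKM summed) and the megakaryocyte and platelet markers (80.5, 262 and 472 FPKM), while the granulocyte markers ran the opposite way (3424, 1813 and 628 FPKM). In the Ebf1+/- libraries Cox6b2 was at 32.6, 16.6 and 34.5 FPKM, lowest in replicate 2 and highest in replicate 3. The erythroid markers ranked the same way there (483, 464 and 1153 FPKM summed). The megakaryocyte and platelet markers (148, 273 and 4206 FPKM) and the granulocyte markers (10701, 2726 and 4018 FPKM) ranked otherwise. The part of these cells in the Cox6b2 difference was not tested. The neighbouring gene Suv420h2, a histone methyltransferase, averaged 23.1 ± 1.78 FPKM in leukemia, 28.1 ± 6.33 FPKM in Ebf1+/- cells and 26.1 ± 3.47 FPKM in wild-type cells, and the neighbour Tmem238 averaged 8.51 ± 2.34, 8.78 ± 2.56 and 8.84 ± 4.39 FPKM. The paralog Cox6b1 measured 342, 307, 335, 286 and 288 FPKM in leukemia, 491, 295 and 304 FPKM in Ebf1+/- cells, and 293, 299 and 285 FPKM in wild-type cells, and its groups overlapped. As a share of the summed FPKM of both genes, Cox6b2 made up 0.00781% ± 0.0175 in leukemia, 7.25% ± 2.58 in Ebf1+/- cells and 7.33% ± 4.09 in wild-type cells. The exact two-sided permutation p for leukemia was 0.0179 against each other group, the smallest that 5 against 3 libraries allow, and 0.143 after adjustment over 24 share tests, none of which passed. For Ebf1+/- against wild type the smallest possible p was 0.1, so those share tests could not pass. A share test at 0.0179 could pass only if many others also reached that value. The adjusted share tests therefore cannot decide whether a share differed.

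Cox6b2 lies on the minus strand at chr7:4751792-4753094 and Cox6b1 on the minus strand of the same chromosome at chr7:30616861-30626151 (GENCODE M21, GRCm38), and no exon of another gene overlaps either. Their upstream sequences are shown because this pair parted most between leukemia and bone marrow cells. They come from RefSeq (GRCm38.p6), 5′ to 3′ on the gene's strand, and end just before the annotated start, at chr7:4753095-4753344 for Cox6b2 and chr7:30626152-30626364 for Cox6b1. Of 5 motifs searched on both strands (NRF1, ETS, YY1, GC box and TATA box), only the GC box GGGCGG was found in these stretches, and capitals mark it. The longer RefSeq window of Cox6b1 (chr7:30626065-30626364) also holds an ETS match, which is not within the stretch shown. The Cox6b2 stretch holds 8 CpG dinucleotides in 250 bases and the Cox6b1 stretch 10 in 213 bases.
Cox6b2: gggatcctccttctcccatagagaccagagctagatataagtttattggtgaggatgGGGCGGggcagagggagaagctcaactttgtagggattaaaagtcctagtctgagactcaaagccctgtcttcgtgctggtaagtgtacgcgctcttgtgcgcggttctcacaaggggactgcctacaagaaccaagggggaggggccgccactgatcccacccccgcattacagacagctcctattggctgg
Cox6b1: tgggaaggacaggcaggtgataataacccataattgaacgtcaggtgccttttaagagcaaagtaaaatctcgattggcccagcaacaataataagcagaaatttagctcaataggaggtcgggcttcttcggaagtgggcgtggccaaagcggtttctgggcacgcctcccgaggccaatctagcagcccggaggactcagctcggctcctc

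The other isoform families of complex IV moved less. Cox6a2, the heart and skeletal muscle isoform of subunit VIa, measured 36.0, 0.348, 30.0, 0.587 and 5.19 FPKM in leukemia, 47.0, 17.6 and 31.6 FPKM in Ebf1+/- cells, and 25, 12.9 and 38.1 FPKM in wild-type cells. Leukemias 1 and 3 were within the range of the bone marrow libraries and leukemias 2, 4 and 5 were below it, so the group was spread wider than for any other subunit gene (SD 2.27 on the log2 scale). The log2 fold change against wild type was -1.82 (SE 1.13, limma adjusted p = 0.219). Its exons overlap Itgad, an integrin gene, which measured 0.652, 0.0578, 0.752, 0.0390 and 0.194 FPKM in the same 5 leukemias and was thus high and low in the same ones. Cox6a1, the common isoform, averaged 337 ± 27.6 FPKM in leukemia, 465 ± 114 FPKM in Ebf1+/- cells and 402 ± 16 FPKM in wild-type cells. All 5 leukemias lay below both groups, but the limma adjusted p of Cox6a1 was 0.0530 against wild type and 0.0824 against Ebf1+/-. Cox6a1 passed with quantile and total-FPKM scaling against wild type (adjusted p = 0.0146 and 0.00553), and with both and with all groups in 1 fit against Ebf1+/- (0.0177 at the lowest).

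In the Cox7a family, Cox7a2l, which acts in joining complexes III and IV into supercomplexes and has a shortened form in C57BL/6 mice, made up 70.2% ± 3.05 of the family's summed FPKM in leukemia, 61.9% ± 3.17 in Ebf1+/- cells and 63.9% ± 2.95 in wild-type cells. The 5 leukemias ran from 66.2% to 73.8%, above the Ebf1+/- libraries (58.5% to 64.7%) and touching the wild-type ones (60.6% to 66.4%). The exact two-sided permutation p was 0.0179 against Ebf1+/- and 0.0536 against wild type, and 0.143 and 0.214 after adjustment over the 24 share tests. Cox7a2, the liver-type isoform, made up 28.5% ± 3.61 in leukemia, 36.9% ± 3.67 in Ebf1+/- cells and 35.3% ± 3.00 in wild-type cells, and Cox7a1, the heart and muscle isoform, stayed at 1.22% ± 0.572, 1.19% ± 0.502 and 0.793% ± 0.139. Cox7a2l has a near-identical copy (97.7% identity over 72.0% of its transcript).

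For the remaining families nearly all reads came from 1 gene in every group. Cox4i2 averaged 0.0656 FPKM in leukemia, 0.352 FPKM in Ebf1+/- cells and 0.440 FPKM in wild-type cells, and all 3 Ebf1+/- libraries (0.328 to 0.368 FPKM) were above all 5 leukemias (0 to 0.222 FPKM). These values rest on few reads: 24 over all libraries, 3 of them in leukemia, where a count of 0 allows 3 reads in a library. Cox8a averaged 226 ± 7.12 FPKM in leukemia, 319 ± 123 FPKM in Ebf1+/- cells and 251 ± 33.6 FPKM in wild-type cells, and Cox8b had 1 read, in leukemia. Ndufa4, which was once counted with complex I and belongs to complex IV, averaged 382 ± 85.0 FPKM in leukemia, 349 ± 97.3 FPKM in Ebf1+/- cells and 280 ± 15.8 FPKM in wild-type cells (log2 fold change in leukemia against wild type 0.42, limma adjusted p = 0.0680). It passed with the replicate block (0.0231) and without leukemia replicate 5. By its symbol it is counted here with complex I. Its relative Ndufa4l2 had no read in leukemia, 2 in Ebf1+/- and 1 in wild-type cells.

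**Figure D3:**
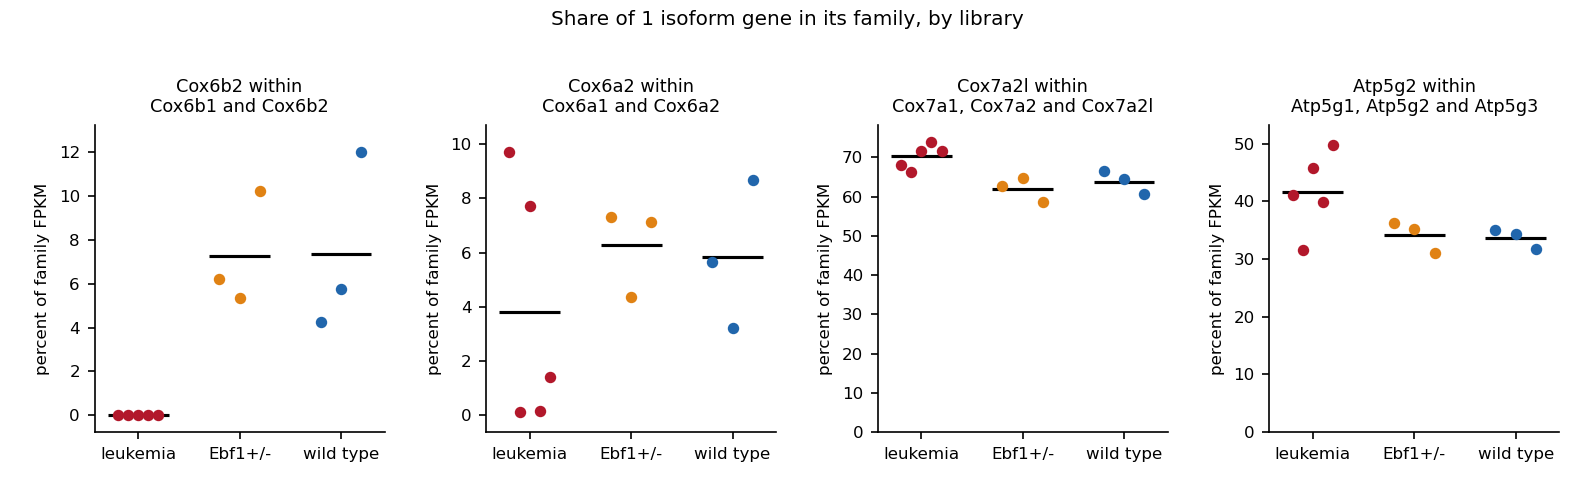
Share of 1 isoform gene in the summed FPKM of its family (percent, axes from 0) in each leukemia, Ebf1+/- and wild-type library, with the group mean as a bar. The leukemias lie at or near 0 for Cox6b2, are split for Cox6a2 (0.118% to 9.72%), and average 70.2% for Cox7a2l and 41.6% for Atp5g2.

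Complex V joins the catalytic F1 head, a stalk and the proton-conducting Fo ring. Of its 16 tested genes by symbol, 5 rose in leukemia and none fell (median log2 fold change 0.20). With total-FPKM scaling 1 rose and none fell. The symbols also took in Atp5s and Atp5sl, which are not counted here among the F1, Fo or stalk subunits. Those that rose were 2 of 5 F1 genes, 2 of 9 Fo and stalk genes, and Atp5s. Atp5e, the epsilon subunit of the F1 head, measured 508, 504, 581, 392 and 406 FPKM in leukemia, 555, 299 and 361 FPKM in Ebf1+/- cells, and 349, 283 and 275 FPKM in wild-type cells. The leukemias were all above the wild-type libraries, while Ebf1+/- replicate 1 was as high as the highest leukemias. The log2 fold change against wild type was 0.65 (SE 0.15, limma adjusted p = 0.00765; under all 17 alternatives at most 0.0354). The F1 gamma subunit Atp5c1, the rotor shaft, averaged 159 FPKM in leukemia, 139 FPKM in Ebf1+/- cells and 120 FPKM in wild-type cells (log2 fold change 0.40).

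Atp5g1, Atp5g2 and Atp5g3 encode the same mature c subunit of the Fo ring from 3 genes. Atp5g2 measured 320, 254, 420, 291 and 276 FPKM in leukemia, 410, 262 and 218 FPKM in Ebf1+/- cells, and 215, 239 and 217 FPKM in wild-type cells. Its 5 leukemias were all above the wild-type libraries (log2 fold change 0.46 with an SE of 0.16, limma adjusted p = 0.0378), and the call was lost under 10 of 17 alternatives, among them the replicate block, total-FPKM scaling and leaving out leukemia replicate 1 or 4 or any 1 wild-type library (adjusted p up to 0.164). Atp5g3 measured 359, 441, 398, 350 and 190 FPKM in leukemia, 582, 383 and 367 FPKM in Ebf1+/- cells, and 331, 372 and 353 FPKM in wild-type cells, with leukemia 5 far below every other library. Atp5g1 averaged 97.8 ± 9.17 FPKM in leukemia, 118 ± 19.9 FPKM in Ebf1+/- cells and 89.0 ± 21.6 FPKM in wild-type cells. As a share of the 3 genes, Atp5g2 made up 41.6% ± 6.90 in leukemia, 34.2% ± 2.69 in Ebf1+/- cells and 33.7% ± 1.67 in wild-type cells, but the exact two-sided permutation p was 0.161 against Ebf1+/- and 0.107 against wild type. Atp5g2 has near-identical copies, which the counting could have split. Atp5s, also called coupling factor B, was a low gene at 3.56 ± 0.396 FPKM in leukemia, 3.54 ± 1.62 FPKM in Ebf1+/- cells and 2.32 ± 0.614 FPKM in wild-type cells (log2 fold change in leukemia 0.47, limma adjusted p = 0.0360, lost under 10 of 16 alternatives, the replicate block among them, with adjusted p up to 0.137).

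**Figure D4:**
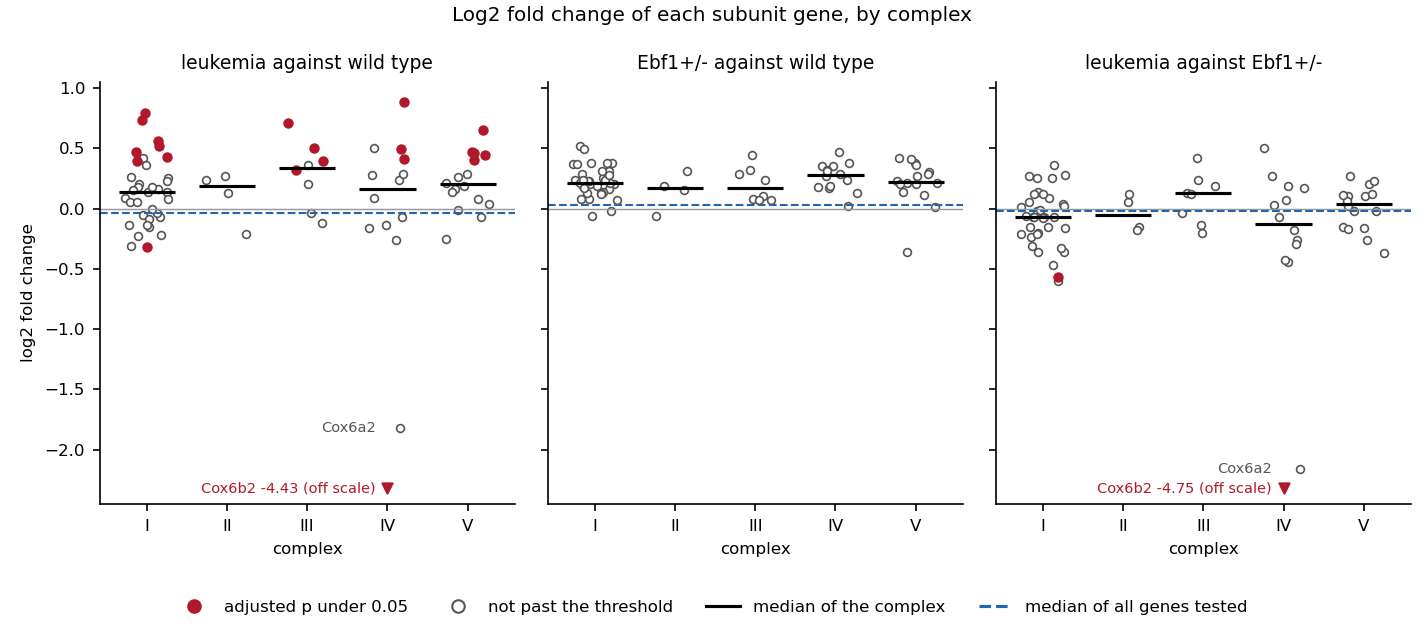
Log2 fold change (limma on log2(FPKM + 1)) of each tested subunit gene by complex, in leukemia against wild type, Ebf1+/- against wild type and leukemia against Ebf1+/-. Filled points passed an adjusted p under 0.05, black bars are medians of a complex, and the dashed line is the median of all genes tested. The first panel has 19 filled points above 0, the second none, and Cox6b2 is off scale in both panels with leukemia.

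Summed over its genes, each complex had a higher mean FPKM sum in leukemia than in wild-type cells, as a description without a test. The libraries of these groups overlapped for complex I (3162 to 3785 FPKM in leukemia, 3004 to 3186 FPKM in wild type). They also overlapped for complex IV (2641 to 3196 FPKM and 2580 to 2799 FPKM). With total-FPKM scaling the mean of complex II was lower in leukemia (444 FPKM) than in wild-type cells (473 FPKM). Complex I summed to 3521 ± 290 FPKM in leukemia, 3728 ± 967 FPKM in Ebf1+/- cells and 3120 ± 101 FPKM in wild-type cells. Complex III summed to 1391 ± 152 FPKM in leukemia, 1308 ± 313 FPKM in Ebf1+/- cells and 1126 ± 14.8 FPKM in wild-type cells, the largest ratio of leukemia to wild type, at 1.24. The ratio was 1.08 for complex II (466 ± 14.7 FPKM against 431 ± 38.4 FPKM), 1.10 for complex IV (2980 ± 225 FPKM against 2698 ± 110 FPKM) and 1.17 for complex V (4172 ± 320 FPKM against 3569 ± 171 FPKM). In Ebf1+/- cells complexes II, IV and V summed to 475 ± 38.5, 3242 ± 982 and 4192 ± 742 FPKM. Leukemias 1, 2 and 3 summed to 13122, 13180 and 13364 FPKM over all 81 genes, leukemias 4 and 5 to 11291 and 11696 FPKM, and the 3 wild-type libraries to 10866, 11231 and 10738 FPKM. All leukemias were thus above all wild-type libraries in this sum, but the FPKM of all genes also summed higher in leukemia. As a share of each library's total FPKM, the subunit genes made up 2.46%, 2.64%, 2.60%, 2.34% and 2.44% in the leukemias and 2.45%, 2.55% and 2.54% in the wild-type libraries, and the groups overlapped.

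Ebf1+/- against wild type sets progenitors heterozygous for Ebf1 alone beside normal ones. No subunit gene was called by limma (0 of 77, background 0.0% of 11164 genes). At an unadjusted p under 0.05 there were 2 of the 77 (Ndufb2 and Ndufv3), against 7.73% of all genes, and voom on the recovered reads also called 0, with 2 at that unadjusted level. The values were positive for 73 of the 77 genes, against 54.0% of all genes, with a median log2 fold change of 0.23 against 0.03 (0.10 against -0.08 with total-FPKM scaling). The Ebf1+/- libraries were above all wild-type ones for 9 genes and below them for 0 (among all genes, 7.53% and 8.11%). Ndufv3, a small flavoprotein-arm subunit of complex I, had the smallest p and measured 41.1, 27.6 and 33.9 FPKM in Ebf1+/- cells and 22.2, 25.5 and 23.7 FPKM in wild-type cells (log2 fold change 0.49, limma adjusted p = 0.575). Ndufb2 had a log2 fold change of 0.52 (limma adjusted p = 0.611).

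These positive values came largely from 1 library. Ebf1+/- replicate 1, pooled from 3 mice, was the highest of all 11 libraries for 49 of the 77 genes, and lay a median of 0.50 above the mean of the libraries on the log2 scale. The other 2 Ebf1+/- libraries were at -0.08 and -0.13. Ebf1+/- replicate 1 gave 1.39% of its reads to subunit genes, against 0.994% to 1.21% in the other 10 libraries. Its 1498 short genes (up to 1249 bases) lay a median of 0.46 above the mean, its genes at large 0.06, and it also had the highest granulocyte marker sum, 10701 FPKM. The part of gene length or of granulocytes in these values was not tested. Without that library, 53 of the 77 genes were positive and the median log2 fold change was 0.05. Complex I then summed to 3169 FPKM in Ebf1+/- cells, against 3120 FPKM in wild-type cells, and complex IV to 2675 FPKM, against 2698 FPKM.

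Leukemia against Ebf1+/- compares 2 groups that are both heterozygous for Ebf1. No subunit gene rose and 2 fell, Cox6b2 and Ndufa1, which is 2.60% of 77, where 21.6% of 11158 genes were called (9.31% higher, 12.3% lower). At an unadjusted p under 0.05 there were 7, against 35.9% of all genes, and 35 of the 77 had a positive log2 fold change, against 47.6% of all genes. The median log2 fold change was -0.02 among subunit genes and -0.02 among all genes. The groups did not overlap for 1 gene that was higher and 5 that were lower in leukemia (among all genes, 12.9% and 16.2%). Without Ebf1+/- replicate 1, 3 genes rose (Ndufb2, Uqcr10 and Cox7c, with adjusted p of 0.0207, 0.0323 and 0.0381), 2 fell and 53 of 77 were positive, with a median of 0.14. With total-FPKM scaling none rose and 8 fell, and the medians were -0.10 for subunit genes and for all genes. With quantile scaling 2 rose and 4 fell, and among all genes the calls were 1537 higher and 1139 lower, against 1039 and 1369 as deposited. Ndufa3, an accessory subunit of complex I, had the smallest p after these, at 132 ± 18.1 FPKM in leukemia and 206 ± 71.5 FPKM in Ebf1+/- cells (log2 fold change -0.60, limma adjusted p = 0.0724), and it passed with total-FPKM scaling (0.0154), with all groups in 1 fit and without Ebf1+/- replicate 2. All 19 genes that rose in leukemia against wild type were positive in Ebf1+/- against wild type and 18 were positive in leukemia against Ebf1+/-, but these comparisons share libraries. For 18 of the 19 the leukemias did not overlap with wild type, for 1 they did not overlap with Ebf1+/-, and for 6 Ebf1+/- replicate 1 was above every leukemia.

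Because the subunit transcripts are short, their values were set beside those of other short genes. The plot by gene length shows that 68 of the 77 genes fell in the shortest quartile of tested genes. In leukemia against wild type, the other genes of that quartile had a median log2 fold change of 0.11 and the 68 subunit genes one of 0.18, while the longest quartile had -0.15. In Ebf1+/- against wild type the same medians were 0.18, 0.24 and -0.14. In leukemia against Ebf1+/- they were -0.03, -0.06 and 0.01. On FPKM as deposited, short genes at large thus moved in the same direction as the subunit genes in both comparisons with wild type, and the part of gene length in the calls was not tested.

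**Figure D5:**
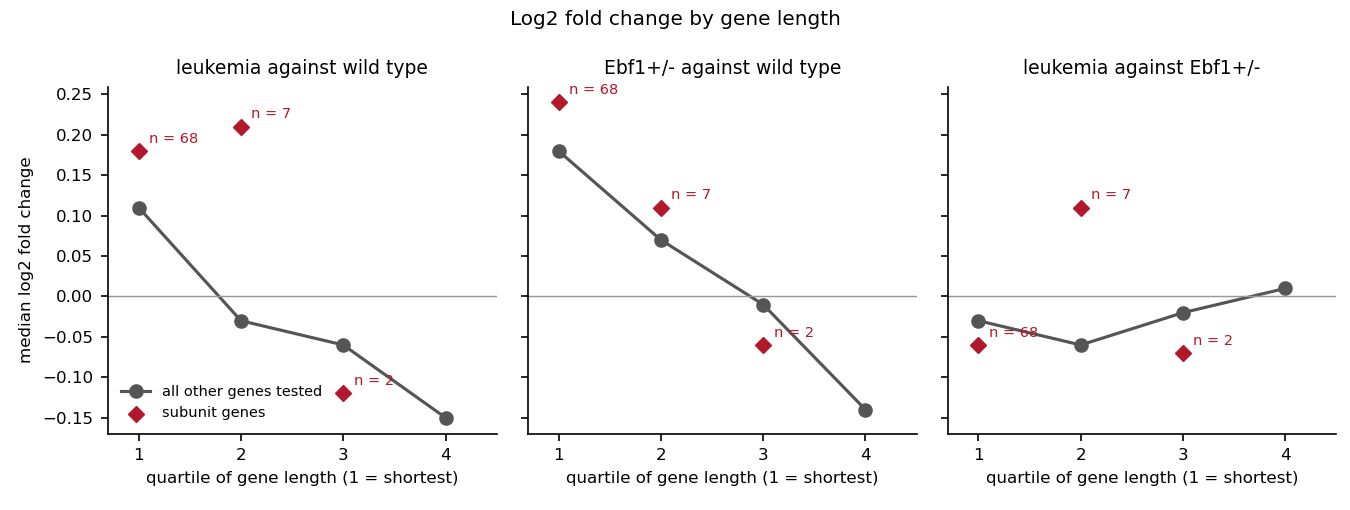
Median log2 fold change of all other tested genes (circles, joined) and of subunit genes (diamonds, with their number) in each quartile of gene length, from shortest to longest, in the 3 comparisons. In both comparisons with wild type the median of other genes falls from the shortest to the longest quartile, and 68 of the 77 subunit genes sit in the shortest.

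Other genes of mitochondrial energy metabolism differed in leukemia against wild type to varying degrees, and each share called is to be read against the 44.8% of all genes. Of 12 subunits and carriers whose symbols the rule does not take, 6 rose and none fell (50% called, median log2 fold change 0.40; 2 and 1 with total-FPKM scaling). Slc25a4, the inner-membrane carrier that exchanges ADP for ATP, averaged 218 ± 28.3 FPKM in leukemia and 91.4 ± 6.70 FPKM in wild-type cells (log2 fold change 1.24, limma adjusted p = 9.72e-05), and Ndufab1, the mitochondrial acyl carrier protein in complex I, 72.3 ± 8.14 FPKM and 49.1 ± 6.99 FPKM (0.55). Of 45 tested assembly factors, 12 rose and 3 fell (33.3% called, median 0.24; 6 and 9 with total-FPKM scaling): Ndufaf2, a complex I assembly factor, averaged 27.0 ± 2.09 FPKM in leukemia and 12.4 ± 1.51 FPKM in wild-type cells (1.07), and Uqcc2, a complex III assembly factor, 150 ± 32.6 FPKM and 58.9 ± 0.640 FPKM (1.30). These 2 assembly factors changed more than any subunit gene that rose.

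Of 20 genes for import of proteins into mitochondria, 11 rose and none fell (55.0% called, median 0.46; 8 and none with total-FPKM scaling), with Tomm7 at 93.9 ± 8.63 FPKM in leukemia and 56.3 ± 3.64 FPKM in wild-type cells and the receptor Tomm20 at 46.3 ± 7.84 FPKM and 23.0 ± 3.02 FPKM. Of 77 mitochondrial ribosome genes 32 rose and 7 fell (50.6% called, median 0.23; 14 and 12 with total-FPKM scaling), with Mrpl23 at 102 ± 6.00 FPKM in leukemia and 51.1 ± 5.46 FPKM in wild-type cells and Mrpl11 at 21.4 ± 1.79 FPKM and 10.9 ± 0.831 FPKM. The citric acid cycle was split, with 3 of 16 genes rising and 3 falling (37.5% called, median 0.02; 3 and 7 with total-FPKM scaling): Suclg2, a subunit of succinyl-CoA ligase, rose to 27.4 ± 3.47 FPKM in leukemia, against 13.4 ± 5.58 FPKM in wild-type cells, and Ogdh, of the 2-oxoglutarate dehydrogenase complex, fell to 34.8 ± 2.44 FPKM, against 56.9 ± 4.27 FPKM. Of 18 regulators of mitochondrial gene expression 4 rose and 4 fell (44.4% called, median 0.08; 1 and 6 with total-FPKM scaling), with Myc, a transcription factor of growth genes, at 156 ± 36.2 FPKM in leukemia and 42.7 ± 22.9 FPKM in wild-type cells (log2 fold change 1.99), and Polg, the mitochondrial DNA polymerase, at 18.4 ± 1.66 FPKM and 29.4 ± 2.75 FPKM (-0.65).

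Most glycolysis and cytosolic ribosome genes rose. Of 15 tested glycolysis genes 10 rose and 2 fell (80.0% called, against 44.8% of all genes; median 0.67; 7 and 2 with total-FPKM scaling), with Pgam1, phosphoglycerate mutase, at 83.1 ± 9.43 FPKM in leukemia and 38.8 ± 5.16 FPKM in wild-type cells, and Pdk1, a kinase that restrains entry of pyruvate into mitochondria, at 38.3 ± 6.74 FPKM and 10.1 ± 3.52 FPKM (log2 fold change 1.86, limma adjusted p = 0.000299). Of 83 tested cytosolic ribosome genes 75 rose and 2 fell (92.8% called, median 0.80; 68 and 2 with total-FPKM scaling), with Rpl15 at 448 ± 60.0 FPKM in leukemia and 220 ± 23.1 FPKM in wild-type cells, while Rps4l, a ribosomal protein gene copy, fell to 0.0297 ± 0.0663 FPKM, against 9.62 ± 0.754 FPKM. The differences between lists were not tested. In Ebf1+/- against wild type no gene of any of these lists was called.

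Upstream windows from RefSeq (GRCm38.p6, 250 bases before to 50 after a start) were matched for 67 of the 81 genes, in 73 windows. Among the entries that were missing were those for Atp5a1, Cox4i1, Cox4i2, Cox6a2, Cox6c, Ndufa2, Ndufa4l2, Ndufb9, Ndufs1, Sdhc, Uqcrb, Uqcrc2 and Uqcrq. Motifs were searched as exact letters on both strands, and matches of different motifs could overlap. The YY1 motif AAGATGGC stood in 12 of the 73 windows (16.4%), against 2.75% of all 32851 windows and 4.75% of windows of the tested genes. The NRF1 motif GCGCATGC stood in 12.3%, against 2.71% of all and 5.53% of tested genes' windows, and the ETS motif CCGGAAG, which GABPA binds, in 20.5%, against 8.86% and 18.8%. The GC box GGGCGG stood in 38.4%, against 35.7% and 62.6%, and TATAAA in 9.59%, against 13.6% and 6.73%. Of the 18 windows of genes that rose in leukemia, 1 held the YY1 motif, against 11 of the other 55. A match describes letters in a window and is no binding site.

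Stretches around the YY1 motif are shown for Ndufb8, the gene with that motif that rose in leukemia against wild type, and for Ndufs4, Ndufa9 and Atp5f1, which did not pass the test. They are read 5′ to 3′ on the gene's strand, which is minus for all 4, with up to 9 bases on each side and the motif in capitals, at chr19:44555393-44555413, chr13:114388045-114388068, chr6:126849099-126849124 and chr3:105959250-105959275. In Atp5f1 the motif runs on the opposite strand, so that its complement GCCATCTT is printed.
Ndufb8: gagaaggtgAAGATGGCtgcc
Ndufs4: gcctacaggAAGATGGCggcggtc
Ndufa9: ttgtgggagAAGATGGCggccgccgt
Atp5f1: gtgcgagcgGCCATCTTgctcctgcc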

How the data were processed

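RNA of 11 samples (5 leukemia, 3 Ebf1+/-, 3 wild type) was sequenced, and the authors deposited 1 table of FPKM values. The tools listed, per the submitters' processing notes, were BWA 0.7.12 for leukemia and wild type, and TopHat2 with Cufflinks for Ebf1+/-, on mouse build mm10 (GRCm38). How reads were counted, and on which annotation, is not stated there. An alignment difference would fall together with the Ebf1+/- group. All positive values (100%) were whole reads within 0.001 read once gene lengths and library totals were recovered. Each comparison was a two-sided limma 3.58.1 fit (R 4.3.3, eBayes with a trend) of its 2 groups alone, on log2(FPKM + 1). Genes averaging 1 FPKM or more in those libraries entered it. A call is a Benjamini-Hochberg adjusted p below 0.05 over all genes in the fit. The 27 date-like identifiers were not named. Some single genes are counted in the totals but not reported here by name. Shares within isoform families were tested by exact permutation (NumPy 2.4.6). The counting interval of Cox6b2 was an exact binomial one (SciPy 1.17.1). Copies of GENCODE M21 transcripts were sought in the mouse genome (GRCm38.p6) with BLAST 2.17.0. The script was tested on simulated data.

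Genes named were the 3 highest and 3 lowest called in each complex in leukemia against wild type, complex II, the isoform families, the 5 most abundant, the 3 of smallest p in the other comparisons, and 2 of smallest p in each other list. The subunit genes and lists were chosen with earlier results of these data known. Deviations from group means correlated at 0.65, 0.32 and 0.69 between Ebf1+/- and wild-type libraries of the same number, so these numbers may pair the samples. Libraries of unlike number were not set beside them and the labels give only a repeat number, so a pairing is not established. The fits reported do not pair libraries by number, and a fit with the number as a block is an alternative. The labels do not say whether leukemia libraries share anything by number. No 2 of the 55 library pairs agreed within sampling noise (lowest chi-square per gene 12.69). Nothing beyond the mice in each pool says how far the samples are independent, so p-values measure the spread between them. Alternatives were other pseudocounts, filters and scalings (total-FPKM scaling was chosen after seeing the data), all groups in 1 fit, a replicate block, voom on reads (scaled by a trimmed mean of M-values) and leaving out each replicate.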

Additional observations from a re-analysis of the deposited data

Results flagged for a closer look

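In 4 of the 76 subunit genes reported here by name or in the heat map, 1 leukemia stood apart from the other 4 by Dixon's test, where chance gives about 1 in 20 genes. Cox5b, a zinc-binding subunit of complex IV, was at 249 FPKM in leukemia 2, against 218 to 226 FPKM in the others. Ndufa13, an accessory subunit of complex I, was at 57.2 FPKM in leukemia 3, against 48.6 to 50 FPKM. Ndufb3, of the membrane arm, was at 123 FPKM in leukemia 1, against 99.2 to 104 FPKM. Cox6b2 was at 0.131 FPKM in leukemia 3, which is 1 read, and at 0 in the others. With 4 values at 0, any single read gives this result, and 1 read is below the 3 reads taken as the limit of a count of 0.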

How the results depend on the processing

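Across the alternatives, single-gene results kept their status, called or not, in 1531 cases. A call was lost in 53 cases, gained in 27 and reversed in 0. Most of these results were not called as reported, so the 1531 cases are mostly results that stayed uncalled. All 53 losses fell on the fewer results that were called. The 19 genes that rose in leukemia against wild type became 6 with total-FPKM scaling, which was chosen after seeing the data, 10 with all 3 groups in 1 fit, and 9 to 22 when a replicate was left out. The 2 that fell became 15 with total-FPKM scaling, 4 with quantile scaling, 1 with all 3 groups in 1 fit, 1 with voom and 1 with the replicate block, and 1 to 2 when a replicate was left out. In leukemia against Ebf1+/-, the 0 that rose became 2 with quantile scaling and 0 to 3 when a replicate was left out, and the 2 that fell became 8 with total-FPKM scaling, 4 with quantile scaling, 4 with all 3 groups in 1 fit, 1 with the replicate block and 1 to 4 when a replicate was left out. The replicate block changed no other count of subunit genes, 19 rising in leukemia against wild type and 0 called in Ebf1+/- against wild type. Summed FPKM in wild-type cells moved beyond 1 SD for complex III (1155 with quantile scaling and 1110 with median-ratio scaling, against 1126 as deposited), complex IV (2868 with quantile scaling, against 2698) and complex V (3886 with quantile scaling, against 3569). With total-FPKM scaling they became 3415, 473, 1233, 2952 and 3908 for complexes I to V in wild-type cells, and 444 for complex II in leukemia, against 466. Counts of a few reads limit Cox4i2, Cox8b, Ndufa4l2 and Ndufs5, and Ndufs5 also has a near-identical copy elsewhere in the genome. The cause of these changes was not tested.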
